A study of Mus musculus with 6 samples.

Results

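The genes described here are 40 that astrocytes express, given as a list of symbols and looked up in the deposited counts. All 40 were among the 32531 named genes, and all 40 passed the filter on low counts that left 16898 genes for testing. The study compared 3 immunopurified (IP) with 3 Input libraries from thalamus of adult mice (line NIDA030, Cbln1-EGFP/Rpl10a), all of them controls without treatment. As the line's name gives it, the ribosomal protein Rpl10a carries EGFP and is tied to the gene Cbln1. Tagged polysomes were pulled from homogenised tissue with antibodies against EGFP, a method called translating ribosome affinity purification (TRAP). Both kinds of library carry the label of RNA bound to ribosomes, and the labels state no difference between the groups other than the pull-down. The tissue is labelled as thalamus, and the deposited count tables carry the name of the parafascicular nucleus, which lies within it. Separate animals or pools are not stated for the replicates, so the p-values cover no more than the spread among these 6 libraries.

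Astrocytes are glial cells that take up transmitter and potassium around synapses, carry water channels at the blood vessels, store and supply energy substrates, and secrete lipoproteins and matrix proteins. TRAP enriches the RNA on tagged ribosomes over that of the whole tissue, and the genes of untagged cells are read as lower in IP. Several astrocyte genes are also expressed in other cells: Apoe and Cst3 in microglia, S100b in oligodendrocytes, Id3 in endothelial cells, and Clu and Ndrg2 in some neurons. In bulk libraries fewer cells of a type and less RNA per cell cannot be told apart.

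The libraries held 23929070 to 57385828 assigned counts. Levels are given in CPM, read counts relative to a library size scaled by the trimmed mean of M-values (TMM). Cbln1 itself had 68.9 to 87.2 CPM in Input and 1361 to 1496 CPM in IP (log2 fold change 4.16, SE 0.11, adjusted p = 9.66e-08). Rpl10a was not called, with 4.72 to 5.07 CPM in Input and 4.09 to 6.02 CPM in IP (0.07, SE 0.28, 95% interval -0.56 to 0.70, adjusted p = 0.857). Alignments that were not unique made up 32.7 to 34.0% of the summed counts in Input and 43.2 to 49.7% in IP. They were given to no gene, and their part in the Rpl10a level was not tested. The transcription factor gene Tcf7l2, a marker of thalamic relay neurons, had 1016 to 1228 CPM in Input and 1888 to 2245 CPM in IP. The list of 10 thalamic glutamatergic markers that holds it was mixed, with 5 higher and 2 lower in IP. Levels of Ttr, a gene of the choroid plexus, were 2.78 CPM in Input replicate 1 and 0 in IP replicate 1, against 477 and 542 CPM in the other Input libraries and 40.6 and 35.1 CPM in the other IP libraries. Without both libraries numbered 1, 36 of the 40 astrocyte genes were called lower and their median log2 fold change was -2.66.

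Of the 40 astrocyte genes 37 fell in IP, 0 rose and 3 were not called (edgeR quasi-likelihood test, adjusted p under 0.05). Among all genes tested, 24.3% were called lower and 23.3% higher by the same rule. That split depended on the scaling: 3930 genes were higher and 4100 lower under TMM, 2887 and 4981 under upper-quartile scaling, and 2458 and 5240 under library totals. The members' median log2 fold change was -2.95, against -0.07 for all genes tested, and the middle of the list lay between -3.33 and -1.96 (quartiles). Of the 40, 36 fell at least 2-fold (18.4% of all genes tested) and 20 fell at least 8-fold (9.51%). The values of IP and Input did not overlap for 39 of 40, where 33.7% of all genes were lower without overlap. The mean IP level, as a share of the mean Input level, was under 10% for 10 members, from 10 to 25% for 19, from 25 to 50% for 8 and above 50% for 3.

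**Figure D1:**
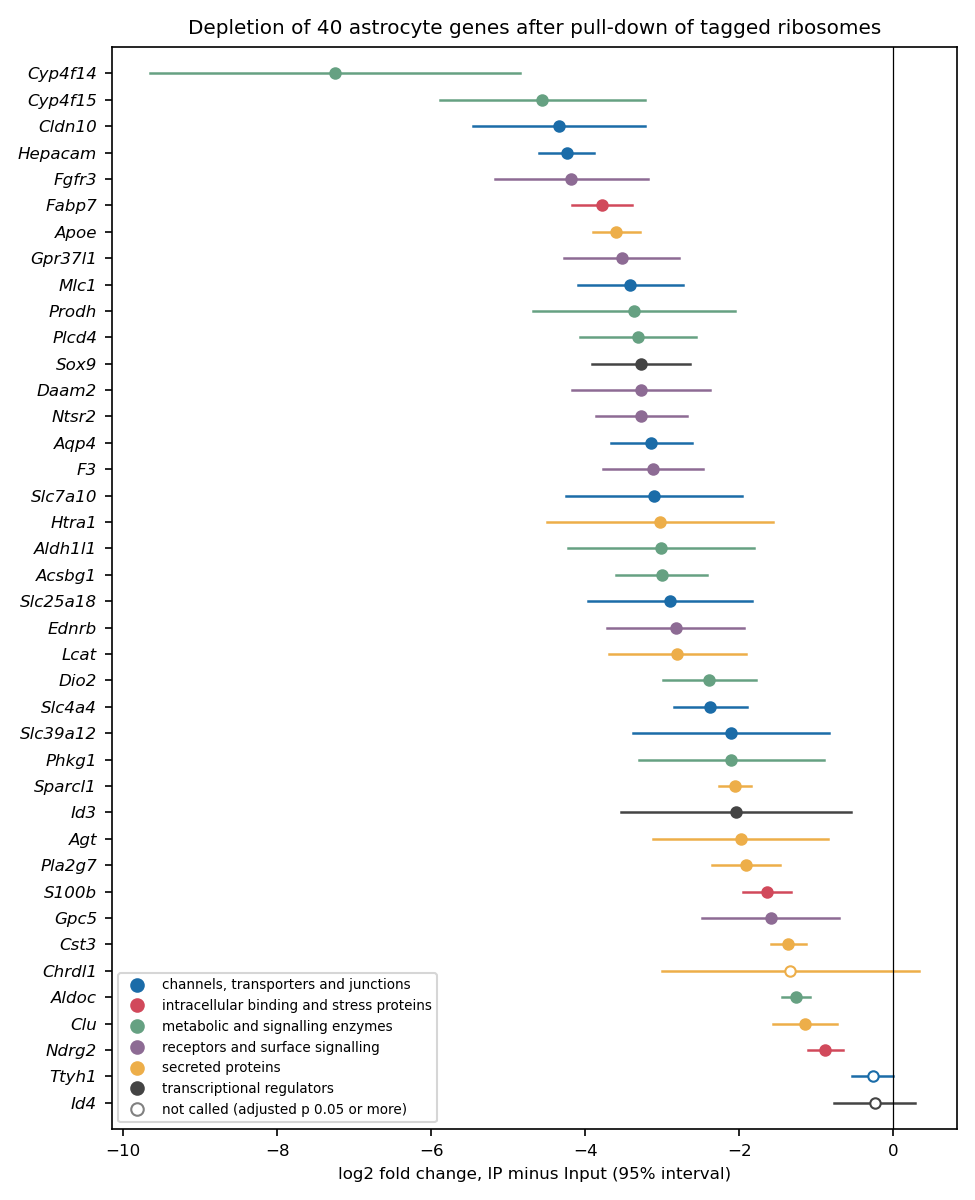
Log2 fold change (IP minus Input, 3 libraries each) of the 40 astrocyte genes from lowest to highest, with 95% intervals as lines, coloured by the role of the protein. Points run from -7.24 (Cyp4f14) to -0.24 (Id4), and the 3 open points (Chrdl1, Ttyh1 and Id4) did not pass the test.

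Of 39 neighbouring pairs in the order of fold changes, the 95% intervals of 38 overlapped, and only those of Ndrg2 and Ttyh1 did not. Sorting puts similar values side by side, so this overlap cannot tell a gradual order from separate groups. Some members far apart in the order were separated, but not all. The wide interval of Id3 (-3.53 to -0.55) overlapped those of both Cldn10 and Id4. The whole 95% interval lay below a log2 fold change of -3 for 7 members (Cyp4f14, Cyp4f15, Cldn10, Hepacam, Fgfr3, Fabp7 and Apoe) and above -2 for 7 others (S100b, Cst3, Aldoc, Clu, Ndrg2, Ttyh1 and Id4). The bounds of -3 and -2 were chosen after the values were seen.

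The stretch before the transcription start is shown for 4 of the members. Promoters of 35 of 40 members were taken from RefSeq (GRCm38.p6, the same assembly as mm10). The other members were left out of the search, which need not mean that they lack a promoter there. The choice was limited to the 8 members with a single start, no annotated exon in the 250 bases before it, and a mean over libraries of 5 CPM or more, and took the 2 deepest (Gpr37l1 and Acsbg1) and the 2 least depleted (Gpc5 and Id4). Capitals mark matches, on either strand, to the short motif of nuclear factor I (TTGGC or GCCAA), a factor family of astrocyte development, to the SOX core ACAAAG or CTTTGT, and to TATAAA or TTTATA.
Gpr37l1 (chr1:135167682-135167931, minus strand): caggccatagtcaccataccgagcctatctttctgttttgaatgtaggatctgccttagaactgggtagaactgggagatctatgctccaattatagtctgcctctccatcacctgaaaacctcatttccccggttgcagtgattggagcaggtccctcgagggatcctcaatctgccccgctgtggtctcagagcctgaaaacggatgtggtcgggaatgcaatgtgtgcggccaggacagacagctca
Acsbg1 (chr9:54661886-54662135, minus strand): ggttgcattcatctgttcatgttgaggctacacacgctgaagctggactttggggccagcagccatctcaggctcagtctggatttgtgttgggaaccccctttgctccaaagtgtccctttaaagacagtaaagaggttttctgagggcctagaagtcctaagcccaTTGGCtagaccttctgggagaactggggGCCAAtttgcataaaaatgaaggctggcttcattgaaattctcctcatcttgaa
Gpc5 (chr14:115091965-115092214, plus strand): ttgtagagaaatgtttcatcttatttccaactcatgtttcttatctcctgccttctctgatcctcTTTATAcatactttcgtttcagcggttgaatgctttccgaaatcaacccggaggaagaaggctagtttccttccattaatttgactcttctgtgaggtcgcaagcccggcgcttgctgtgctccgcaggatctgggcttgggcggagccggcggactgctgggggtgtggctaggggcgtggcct
Id4 (chr13:48260866-48261115, plus strand): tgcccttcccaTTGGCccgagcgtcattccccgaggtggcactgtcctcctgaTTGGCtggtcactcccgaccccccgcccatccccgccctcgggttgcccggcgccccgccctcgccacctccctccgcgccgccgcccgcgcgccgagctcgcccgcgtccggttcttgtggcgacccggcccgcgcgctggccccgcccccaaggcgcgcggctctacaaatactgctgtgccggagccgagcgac
The Id4 window ends at the RefSeq start, and the GENCODE transcript of Id4 starts further downstream, at 48261228, so for Id4 the annotations differ on the start. Acsbg1 and Id4 each held 2 matches to the nuclear factor I motif, Gpr37l1 and Gpc5 held 0, and Gpc5 held 1 match to TTTATA. None of the 4 windows held the SOX core. The Id4 window was 75.6% G and C with 35 CpG pairs, against 48.4% and 1 in Acsbg1. Over all starts of a gene, the nuclear factor I motif was in the 250 bases of 22 of 35 members (62.9%) and of 45.3% of the 27025 genes in the table. The SOX core was in 8 of 35 (22.9%) against 18.6% of genes, and TATAAA or its reverse complement in 7 of 35 (20%) against 14.3%. A gene with more starts has more windows that can match. Counted by start, the nuclear factor I motif was in 28 of 48 member windows against 41.5% of 32851 windows. The SOX core was in 8 of 48 against 16.5%, and TATAAA or its reverse complement in 7 of 48 against 12.4%. The median G and C content was 55.4% in member windows and 52.4% in all windows. Of the 4 windows shown, the nuclear factor I motif was in that of Acsbg1, which was called lower, and that of Id4, which was not. A match is a description of letters only. The members searched and the genes in the table may not have been selected by the same rule, and the difference in shares was not tested.

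Channels, transporters and junction proteins fell in 8 of 9 cases (median log2 fold change -3.10). Hepacam, an adhesion molecule that brings Mlc1 to astrocyte contacts, had 60.1, 60.4 and 64.7 CPM in Input replicates 1 to 3. In IP it had 2.90, 3.86 and 3.04 CPM, -4.24 on the log2 scale (SE 0.16, adjusted p = 3.84e-07). All 3 IP libraries lay more than 10 times below the lowest Input library, and Hepacam (chromosome 9, 37367351 to 37386575, mm10, plus strand) had the largest decrease among members that averaged 5 CPM over all 6 libraries. Cldn10, at 9.26 CPM in Input, missed that bound through its low IP level and had a similar value. Mlc1, the partner of Hepacam, is a membrane protein whose loss causes a leukoencephalopathy. It had 17.9, 16.5 and 22.6 CPM in Input and 1.26, 2.53 and 1.55 CPM in IP (-3.41, SE 0.30, adjusted p = 3.04e-05). The log2 ratio of Mlc1 to Hepacam was higher in every IP library than in any Input library, by 0.93 on average (exact two-sided permutation p = 0.1, adjusted p = 0.133 over 4 pairs, where 0.1 is the smallest that 3 against 3 libraries allow).

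Slc4a4, a sodium bicarbonate cotransporter, was the most abundant of this group in CPM. It had 132, 140 and 130 CPM in Input and 20.5, 21.0 and 36.2 CPM in IP (-2.37, SE 0.21, adjusted p = 3.00e-05). Its IP replicate 3 was the highest of the IP libraries, and the groups did not overlap. The water channel Aqp4 fell as well (-3.14, SE 0.23), with IP replicate 1 highest at 12.2 CPM against 6.10 and 7.95. The tight junction claudin Cldn10 (-4.34, SE 0.50), the alanine-serine-cysteine transporter Slc7a10 (-3.10, SE 0.51), the mitochondrial glutamate carrier Slc25a18 (-2.90, SE 0.47) and the zinc transporter Slc39a12 (-2.11, SE 0.56) made up the rest of the decreases. Without IP replicate 2 the value for Slc25a18 was -3.62, and without IP replicate 3 that for Slc39a12 was -2.80.

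Ttyh1, a membrane protein of the tweety family, was the member of this group that was not called. It had 35.8, 40.2 and 39.2 CPM in Input and 29.7, 33.5 and 32.9 CPM in IP. The IP values were all below the Input values, but by little: the log2 fold change was -0.26 (SE 0.12, 95% interval -0.53 to 0.00, adjusted p = 0.0945). Ttyh1 was called lower under upper-quartile scaling (-0.44, adjusted p = 0.0123), library totals (-0.50, adjusted p = 0.0142), a stricter filter (-0.43, adjusted p = 0.0147) and DESeq2 (-0.31, adjusted p = 0.0301). Of its exonic bases 6.65% are shared with genes on the opposite strand.

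**Figure D2:**
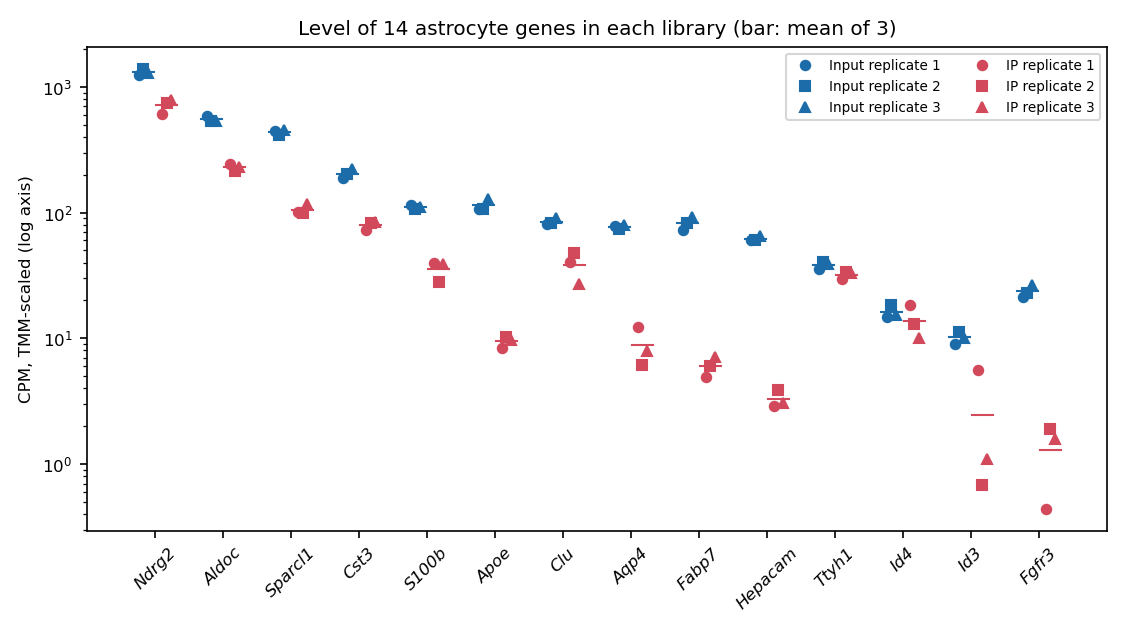
CPM of 14 astrocyte genes in each library on a log axis, with blue symbols for Input, red symbols for IP and a bar at the mean of 3. Hepacam, Fabp7 and Apoe are far lower in every IP library, while Ttyh1 and Id4 lie close to Input and Id3 is spread from 0.676 to 5.58 CPM in IP.

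All 9 enzyme genes fell (median -3.01). Aldoc, the brain isoform of the glycolytic enzyme aldolase, had 585, 536 and 531 CPM in Input and 242, 215 and 232 CPM in IP. Its log2 fold change of -1.26 (SE 0.08, adjusted p = 5.74e-06) was the smallest decrease among the enzymes and had the smallest standard error of the 40 genes. Plcd4, a phospholipase C, had 8.42, 11.1 and 9.24 CPM in Input and 1.16, 1.07 and 0.659 CPM in IP (-3.31, SE 0.33, adjusted p = 6.07e-05). Of the exonic bases of Plcd4, 29.8% are shared with Zfp142 on the opposite strand, and the strand setting of the counting was not given in the sources used here.

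The folate enzyme Aldh1l1, widely used to mark astrocytes, fell by 3.01 on the log2 scale (SE 0.54, adjusted p = 0.00164). Its 3 IP libraries were uneven, with 0.520, 2.77 and 1.01 CPM against 9.57 to 13.7 CPM in Input, and without IP replicate 2 the value was -3.92. Acsbg1, an acyl-CoA synthetase, fell by 3.01 (SE 0.26). The proline dehydrogenase gene Prodh (-3.37, SE 0.58), the deiodinase gene Dio2, which makes active thyroid hormone (-2.39, SE 0.27), and the phosphorylase kinase subunit gene Phkg1 (-2.10, SE 0.53) were lower too.

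The cytochrome P450 genes Cyp4f14 and Cyp4f15, which act on fatty acids and leukotrienes, were the lowest of all members and were little read. Counts of Cyp4f14 were 56, 137 and 164 in Input replicates 1 to 3, against 0, 0 and 2 in IP. Pooled over libraries, IP stood at 0.525% of Input, with a 95% interval of 0.0634 to 1.91% that covers counting error only. Its fitted log2 fold change of -7.24 (SE 1.07, adjusted p = 5.71e-04) rests on those 2 counts in IP replicate 3, without which all IP libraries are at 0 and the fitted value was -9.90. For Cyp4f15 the Input libraries held 72, 188 and 238 counts against 5, 8 and 8 in IP (-4.55, SE 0.59, adjusted p = 2.76e-04). Whether the pair differ in depletion could not be read at these levels: the difference of log2 ratios was 0.05 with a pseudocount of 0.5 CPM (exact two-sided permutation p = 0.6, adjusted p = 0.6) and -0.70 with 0.1 CPM.

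Among 9 genes for secreted proteins 8 fell, with a median of -1.98 that was nearer 0 than those of the channel, enzyme and receptor groups. Sparcl1, a matrix protein that promotes synapse formation, was the most abundant, at 446, 415 and 452 CPM in Input. In IP it kept 100.2, 98.8 and 116 CPM (-2.06, SE 0.09, adjusted p = 8.07e-07), and the groups lay far apart. Apoe, the main lipoprotein of the brain, had 107, 107 and 128 CPM in Input and 8.32, 10.3 and 9.65 CPM in IP (-3.60, SE 0.14, adjusted p = 3.84e-07). Clu, or clusterin, another lipoprotein component, had 80.4, 82.8 and 91.0 CPM in Input and 40.3, 47.7 and 27.0 CPM in IP (-1.14, SE 0.19, adjusted p = 9.88e-04).

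Per kb of exon, Apoe (53.4 CPM per kb) was above Clu (24.7) in Input and below it in IP (4.41 against 11.2). Relative to mean Input, Apoe kept 7.29, 9.05 and 8.45% in IP replicates 1 to 3 and Clu kept 47.6, 56.3 and 31.9%. The log2 ratio of Apoe to Clu was 0.42 in Input and -1.93 in IP on average, a difference of -2.36 with no overlap between groups (exact two-sided permutation p = 0.1, adjusted p = 0.133). Cst3, the protease inhibitor cystatin C, was between them (-1.36, SE 0.10), with 72.2 to 84.2 CPM in IP and 187 to 222 CPM in Input. The microglial list, whose cells express Apoe and Cst3 too, had 13 of 16 genes lower, and its summed level was 11.7 to 13 CPM in IP and 73.5 to 84.9 CPM in Input. Its part in the result was not tested.

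The angiotensin precursor gene Agt (-1.98, SE 0.50), the protease gene Htra1 (-3.03, SE 0.65), the cholesterol acyltransferase gene Lcat (-2.81, SE 0.39) and the lipoprotein phospholipase gene Pla2g7 (-1.91, SE 0.19) fell as well. Htra1 had 0.480, 0.697 and 3.58 CPM in IP, and without IP replicate 3 its value was -4.43. Agt had 0.920 CPM in IP replicate 1 but 4.36 and 4.42 CPM in the others, against 9.70 to 15.6 CPM in Input. Chrdl1, a BMP antagonist that promotes synapse maturation, was not called. Its counts were 19, 63 and 60 in Input and 12, 27 and 17 in IP, at most 1.21 CPM, and its log2 fold change was -1.34 (95% interval -3.0 to 0.33, adjusted p = 0.166). The IP values (at most 0.589 CPM) were all below the Input values (at least 0.744 CPM). The interval holds both 0 and the median of the 40 genes, so the fit told Chrdl1 apart from neither.

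All 7 receptor and surface signalling genes fell (median -3.27). The growth factor receptor Fgfr3 had 21.2, 22.9 and 26.6 CPM in Input and 0.440, 1.90 and 1.58 CPM in IP (-4.18, SE 0.44, adjusted p = 7.93e-05). Daam2, a formin of Wnt signalling, was the most abundant of the group in CPM, with 92.8, 86.5 and 93.1 CPM in Input and 4.10, 16.0 and 8.14 CPM in IP (-3.27, SE 0.40). Its IP libraries differed from each other by more than 3-fold, and without IP replicate 2 the value was -3.89. Gpc5, a glypican that carries heparan sulfate, had the smallest decrease of the group, from 8.58, 7.89 and 10.1 CPM in Input to 1.80, 2.14 and 4.89 CPM in IP (-1.59, SE 0.39, adjusted p = 0.00866).

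The orphan receptor gene Gpr37l1 (-3.53, SE 0.33), the neurotensin receptor gene Ntsr2 (-3.27, SE 0.26), the tissue factor gene F3 (-3.12, SE 0.29) and the endothelin receptor gene Ednrb (-2.82, SE 0.40) lay between them. Ednrb was -3.45 without IP replicate 3. For Gpr37l1, IP replicate 1 was lowest at 1.24 CPM, and for Ntsr2 IP replicate 3 was highest at 6.02 CPM, so the libraries did not keep 1 order.

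Of the 3 transcriptional regulators, only Sox9 and Id4 were apart by the intervals of their log2 fold changes. The interval of Sox9 was -3.91 to -2.64 and that of Id4 was -0.76 to 0.29. That of Id3 (-3.53 to -0.55) overlapped both. Sox9, a transcription factor needed for astrocyte fate, had 51.9, 57.2 and 43.4 CPM in Input and 5.4, 7.24 and 3.08 CPM in IP (-3.28, SE 0.28, adjusted p = 2.75e-05). Id3, which blocks DNA binding of helix-loop-helix factors, had 9.09, 11.3 and 10.1 CPM in Input and 5.58, 0.676 and 1.11 CPM in IP. IP replicate 1 held 279 counts of Id3 and the others 31 and 47, and the call (-2.04, SE 0.66, adjusted p = 0.0300) depended on the libraries used. Without IP replicate 1 the log2 fold change was -3.50 (adjusted p = 4.04e-05), whereas when any 1 Input library or IP replicate 3 was left out the call was lost (adjusted p between 0.0656 and 0.0834).

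Id4, of the same family as Id3, had 14.8, 18.4 and 15.4 CPM in Input and 18.3, 12.9 and 10 CPM in IP. The groups overlapped, which held for no other member, and Id4 was not called (log2 fold change -0.24, SE 0.23, 95% interval -0.76 to 0.29, adjusted p = 0.427). For Id4 too, IP replicate 1 was the highest of the IP libraries. The log2 ratio of Id3 to Id4 was -0.65 in Input and between -3.51 and -1.63 in IP, a mean difference of -1.97 without overlap (exact two-sided permutation p = 0.1, adjusted p = 0.133). In the endothelial list, whose cells express Id3, 9 of 14 genes fell. Its summed level was 24.0, 12 and 18.7 CPM in IP replicates 1 to 3 and 44.8 to 47.6 CPM in Input, and the glucose transporter gene Slc2a1 alone gave 17.8, 10.5 and 15.5 CPM of the IP sums. The median gene of the list stood at 19.0, 4.74 and 3.54% of its mean Input level in IP replicates 1 to 3, highest in the library where Id3 was high. Only Slc2a1 of the list averaged 5 CPM or more, so these medians rest on genes with few counts in IP. The genes of the list did not share 1 order of libraries. Ly6c1, Esam, Flt1, Slc2a1, Itm2a and Vwf were highest in IP replicate 1, as Id3 was. Slco1a4 and Eng were highest in IP replicate 2, and Abcb1a, Kdr, Pecam1 and Tek in IP replicate 3. The endothelial genes Cldn5 and Cdh5, with Input means of 0.475 and 1.03 CPM, had 0 counts in all IP libraries, while Vwf had 1.34, 0.131 and 0.400 CPM in IP and 0.459 to 0.705 CPM in Input. These genes were chosen after their values were seen, and the part of endothelial RNA in the Id3 values was not tested.

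The intracellular binding and stress proteins held the most abundant member. Ndrg2, a stress-responsive protein of the hydrolase fold, had 1248, 1384 and 1288 CPM in Input and 602, 747 and 781 CPM in IP (-0.88, SE 0.10, adjusted p = 1.41e-04). It was the called member with the smallest decrease, and IP kept 54.3% of its Input level. The calcium-binding protein gene S100b fell by 1.64 (SE 0.14), from 106 to 116 CPM in Input to 28.2 to 39.6 CPM in IP. In the oligodendrocyte list, whose cells express S100b, all 18 genes fell, and its summed level was 459 to 575 CPM in IP and 4619 to 5286 CPM in Input. Its part in the S100b values was not tested. Fabp7, a fatty acid binding protein of radial glia and astrocytes, had 72.5, 82.0 and 92.3 CPM in Input and 4.88, 5.99 and 7.06 CPM in IP (-3.78, SE 0.17, adjusted p = 9.16e-07).

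**Figure D3:**
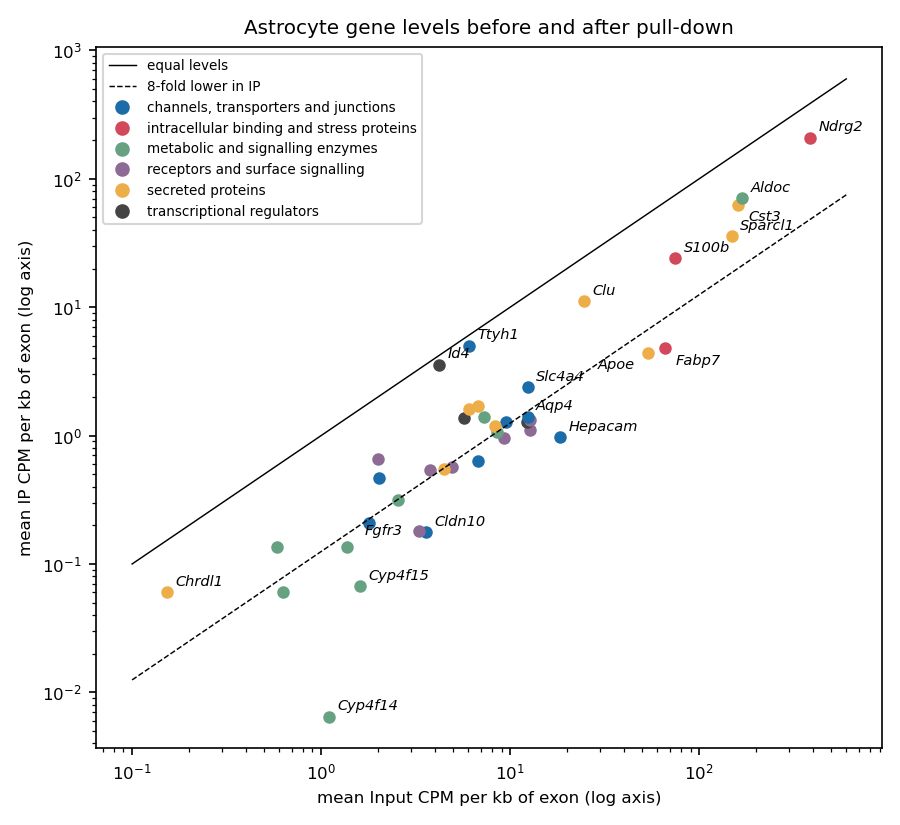
Mean IP level against mean Input level of the 40 astrocyte genes, both in CPM per kb of exon on log axes, with lines for equal levels and for an 8-fold decrease. Ndrg2, Aldoc, Cst3 and Sparcl1 are the most abundant in both groups, while Ttyh1 and Id4 lie nearest to the line of equal levels.

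Levels of different genes were compared per kb of annotated exon. In Input the order was led by Ndrg2 (385 CPM per kb), Aldoc (169), Cst3 (161), Sparcl1 (149), S100b (74.8), Fabp7 (65.8) and Apoe (53.4). In IP Ndrg2 (209 CPM per kb), Aldoc (70.3), Cst3 (62.7), Sparcl1 (35.7) and S100b (24.0) kept the first 5 places. Clu (11.2) and Ttyh1 (5.02) stood sixth and seventh there, ahead of Fabp7 (4.78) and Apoe (4.41). Ttyh1 had rank 23 and Id4 rank 27 in Input and ranks 7 and 10 in IP.

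The order of fold changes followed Input abundance only loosely. Across the 40 genes the Spearman correlation between the log2 fold change and the Input level was 0.21 in CPM and 0.18 in CPM per kb, against 0.32 and 0.39 across 14772 genes with a matched annotation. These are correlations across genes that share the same libraries, and genes are not independent replicates. The 20 members with the higher Input level per kb had a median log2 fold change of -2.95 and the other 20 had -2.92. The more abundant 20 ran from -4.24 to -0.88 and the other 20 from -7.24 to -0.24, so both ends of the order were genes of lower abundance. Among abundant genes, Fabp7 and Apoe kept 7.27 and 8.27% of Input and Ndrg2 and Aldoc kept 54.3 and 41.6%.

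The IP libraries differed from each other more than the Input libraries did. The coefficient of variation of a member over 3 libraries had a median of 37.4% in IP and 10.7% in Input, and it was larger in IP for 39 of 40 members, all but Cst3. In 12 members the highest IP library was more than 3 times the lowest. IP replicate 1 held the lowest IP value for 26 members and the highest for 8, among the latter Id3, Id4, Aqp4, Prodh and S100b. The median member stood at 9.79, 15.3 and 12.9% of mean Input in IP replicates 1 to 3. IP replicate 1 was also the library with the most assigned counts and, at 14.5% of them against 9.38 and 9.74%, the most counts of the ribosomal RNA precursor Rn45s, and the part of these in the difference was not tested.

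**Figure D4:**
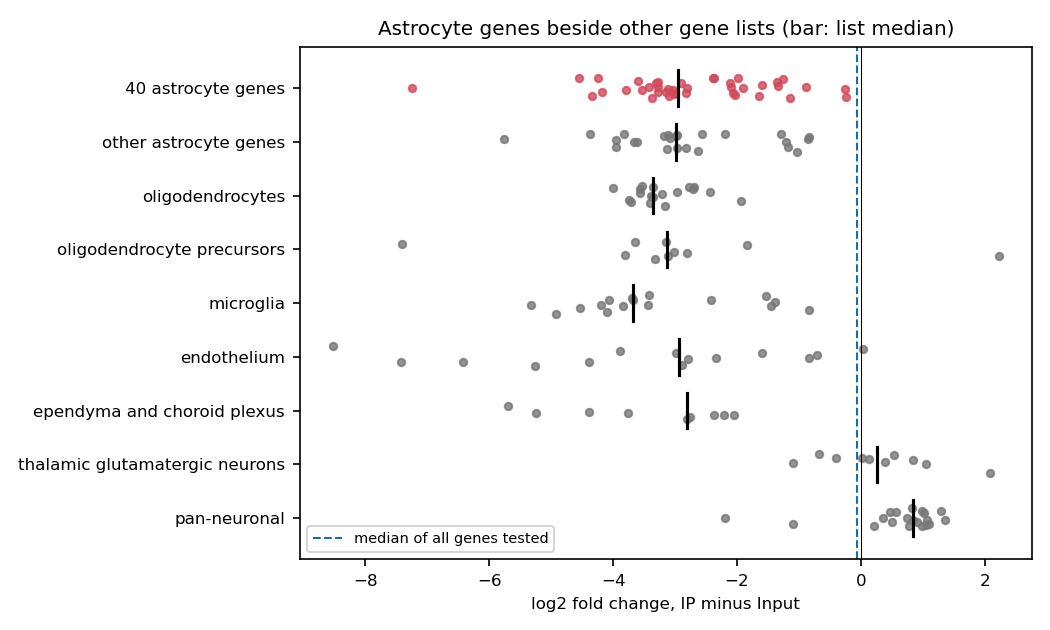
Log2 fold change (IP minus Input) of each gene of the 40 astrocyte genes (red) and of 8 other lists (grey), with a bar at each list's median and a dashed line at the median of all genes tested. Medians of the glial, vascular and ependymal lists lie between -3.69 and -2.81, and 17 of 20 pan-neuronal genes rose.

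A second list of 24 astrocyte genes outside the 40, also chosen with earlier results of these data known, gave similar values. All 24 fell, with a median of -2.98, and where levels averaged 5 CPM or more they ran from Itih3 (-3.95) to the metallothionein gene Mt2 (-0.85). The summed level of the 40 members was 3650 to 3756 CPM in Input and 1243 to 1452 CPM in IP, and that of the 24 other genes was 3301 to 3559 and 1091 to 1159 CPM. The abundant members Ndrg2, Aldoc, Sparcl1 and Cst3, which kept 24.0 to 54.3% of Input, weigh most in the sum of the 40.

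Lists of other cell types show how far unrelated glial and neuronal genes moved in the same libraries. Oligodendrocyte genes had a median of -3.36 and spanned -4.00 to -1.93. Of 10 oligodendrocyte precursor genes 9 fell and Lhfpl3 rose, by 2.22 on the log2 scale (median -3.13), and the 16 microglial genes had a median of -3.69. The endothelial median was -2.94 (9 of 14 lower), and the ependymal and choroid plexus median was -2.81 (6 of 9 tested lower). Of 20 pan-neuronal genes 17 rose and 2 fell (median 0.83), and of 10 markers of thalamic glutamatergic neurons 5 rose and 2 fell (median 0.26). The difference between these lists and the astrocyte genes was not tested.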

How the data were processed

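The authors deposited raw read counts per gene symbol, 1 file for each of 6 libraries (3 IP, 3 Input). STAR 2.0.0e (alignment to mm10) and HTSeq (counting) are named in the submitters' processing notes. For HTSeq, its version, annotation and strand setting are not given in the sources used here. The 5 closing lines tied to no gene (53.2 to 59.8% of the summed counts) and the line "unknown" were left out. Genes were filtered with filterByExpr (minimum count 10), scaled by TMM and tested across all genes with edgeR 4.0.16 in R 4.3.3 (robust quasi-likelihood F-test, Benjamini-Hochberg, threshold 0.05), after a test on simulated data. The simulation used 1 dispersion for all genes and both groups, so it does not cover the wider spread among the IP libraries. Standard errors come from the F statistic. A fold change against a group with very few counts depends on the prior count. Replicates differed by more than sampling noise (chi-square per degree of freedom 12.3 to 141). Ratios of 4 pairs of members (pseudocount 0.5 CPM) were compared by exact permutation. Genes were placed on GENCODE M21 by symbol (40 of 40 matched), and 11 members share exonic bases with another gene. Members and lists were chosen with earlier results of these data known. Per-library values go to the most abundant, most and least depleted member of each role group (mean of at least 5 CPM for the latter), members not called and the pairs, and further values were chosen after they were seen. Alternatives covered other scalings, filters, tests (DESeq2 1.42.0, limma 3.58.1), a replicate block and leaving out libraries.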

Additional observations from a re-analysis of the deposited data

How the results depend on the processing

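Over 19 alternative settings all 40 members kept a log2 fold change below 0 wherever they were tested, and 0 were called higher. The count called lower was 34 to 38, except that requiring 1 CPM in all libraries left 23 members, 22 of them lower, with a median of -2.55, and left 44 genes of the other lists lower instead of 83. That filter removes genes because they are low in IP. The members' median moved to -3.13 under upper-quartile scaling, -3.17 under library totals, -3.10 with limma-voom and -3.10 with the replicate block, and it ran from -3.01 to -2.66 when libraries were left out, the latter without replicate number 1 and -2.67 without IP replicate 1 alone. The median of all genes was -0.25 under upper-quartile scaling and -0.31 under library totals. Over all genes, 2458 were called higher under library totals, and with a 1.5-fold change as the null 1484 were higher and 2700 lower. The difference for Cyp4f14 and Cyp4f15 turned to -0.70 with a pseudocount of 0.1 CPM. Of 743 member values 12 lost and 4 gained the call. Besides Id3 (7 of the losses, adjusted p 0.0656 to 0.175) and Ttyh1 (the 4 gains), Phkg1 lost it without replicate number 1 or 3 (0.0533 and 0.0712), Slc39a12 and Gpc5 without number 2 (0.0881 and 0.0576) and Agt without number 3 (0.0608). The replicate block called 37 members lower, 4038 genes lower and 3793 higher, and it called 9 of 9 ependymal and choroid plexus genes lower instead of 6. Deviations of libraries with the same number correlated by 0.16, 0.0539 and 0.0433 across genes. By this measure Input replicate 1 was nearest to IP replicate 1, but Input replicates 2 and 3 were nearest to IP replicates 3 and 2. The libraries numbered 1 also had the lowest Ttr level of their groups. The labels state no pairing, so the main test did not pair the libraries and the block was kept as an alternative. For Cyp4f14 the few counts in IP limit the precision, and the interval of Chrdl1 was wide (-3.0 to 0.33).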
